A study of Homo sapiens with 6 samples.

Results

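The cytosolic tRNA synthetases and the amino acid response governed by the transcription factor ATF4 were followed in HaCaT keratinocytes given a miR-21-3p mimic. The module held 38 listed genes, 20 cytosolic synthetases and 18 genes of ATF4 stress signalling and of serine, asparagine, cysteine and folate metabolism, taken by gene name from a table of 22152 genes. Of these, 37 were found and all 37 passed the filter on low values, a normalized count of at least 10 in at least 3 libraries. ALDH1L2 was not analysed here. HaCaT is a human keratinocyte line that became immortal on its own. Cells received a synthetic miR-21-3p mimic at 1 nM (3 libraries) or a negative control mimic (NC mimic) at 1 nM (3 libraries), and polyadenylated RNA was sequenced 48 h after transfection. The replicates were described as biological, so the p-values measured the spread between separate transfected samples of 1 cell line. The comparison asked which transcripts differ when keratinocytes carry more miR-21-3p.

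Aminoacyl-tRNA synthetases join each amino acid to its tRNA, the step that fixes the genetic code during protein synthesis. Several of them are held with scaffold proteins in a large multi-synthetase complex, and others work as free enzymes. When an amino acid runs short, uncharged tRNA activates the kinase GCN2, which phosphorylates the initiation factor eIF2. General translation then slows while the ATF4 message is translated better, and ATF4 protein turns on genes for amino acid synthesis, import and tRNA charging. Much of this control of ATF4 lies in translation, which mRNA levels do not show. The short DNA element through which ATF4 acts, together with C/EBP proteins, is known as the C/EBP-ATF or amino acid response element.

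The letters of that element, TGATGNAAN, where N is any base, were searched on both strands of the promoter windows that RefSeq gives on GRCh38.p14, from 250 bases before to 50 bases after each start. They were present in 3.61% of all 35116 windows and in at least 1 window of 4.45% of 27305 genes. Of the 32 members matched, 11 (34.4%) held the element in a window. Those 11 were AARS, CARS, GARS, IARS, MARS, NARS, TARS, ATF3, ASNS, CHAC1 and CEBPG. Of the 11 members called higher that were matched, 5 held it and 6 (FARSB, WARS, TRIB3, PSAT1, STC2 and MTHFD2) did not, and of the 21 matched members not called, 6 held it. Whether these shares differ was not tested. Not matched were DARS, LARS, VARS, YARS, PSPH and ALDH1L2 and, among mature miRNAs, miR-21-3p. The stretches below show the element in 4 of the 5 called members that held it, to place it against their starts, and in CHAC1, which was not called. The capitals mark the element or, for AARS, IARS, MARS and CHAC1, its reverse complement.
AARS, chr16:70289666-70289756 on the minus strand: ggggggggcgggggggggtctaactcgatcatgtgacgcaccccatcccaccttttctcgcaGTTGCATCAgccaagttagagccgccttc
IARS, chr9:92293698-92293791 on the minus strand: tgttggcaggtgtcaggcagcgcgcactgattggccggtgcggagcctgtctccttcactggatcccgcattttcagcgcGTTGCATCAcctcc
MARS, chr12:57487983-57488071 on the plus strand: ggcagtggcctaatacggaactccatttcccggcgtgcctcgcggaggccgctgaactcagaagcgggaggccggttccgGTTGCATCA
ASNS, chr7:97872448-97872556 on the minus strand: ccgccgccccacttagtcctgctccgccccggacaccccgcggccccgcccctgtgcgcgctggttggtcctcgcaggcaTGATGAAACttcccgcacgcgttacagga
CHAC1, chr15:40953221-40953289 on the plus strand: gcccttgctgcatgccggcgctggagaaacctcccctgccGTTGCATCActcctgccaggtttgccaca
The element began 188, 14, 5, 68 and 210 bases before the start in this order of genes. In GARS, the called member not shown, it began 34 bases before. Members not called also held it near the start. It began 3 (CARS), 42 (CEBPG) and 191 (ATF3) bases before the start, and 1 (TARS) and 14 (NARS) bases after it. Whether its position goes with the calls was not tested. A match describes the letters of the window and does not show binding.

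Values are normalized counts, reads per gene divided by 1 size factor per library. The libraries held 24402946, 24529424 and 26173244 reads in genes with the NC mimic and 24802261, 24976223 and 27981281 with the miR-21-3p mimic. Keratinocyte markers were abundant in every library. KRT5, the basal keratin, was the most abundant of 9 keratinocyte markers and reached 139000, 123000 and 130000 normalized counts in the NC mimic and 135000, 139000 and 125000 in the miR-21-3p mimic. Summed over the 9 markers, the level was 318003 ± 9540 (SD, n = 3) in the NC mimic and 324236 ± 12615 in the miR-21-3p mimic. Of the 9, 1 was called higher, KRT6A of activated keratinocytes (16800 ± 300 and 21300 ± 529), and 0 were called lower in the main fit. Over all genes tested, 6.11% were called higher and 4.66% lower. The groups did not overlap in 3 markers that were higher with the miR-21-3p mimic and in 1 that was lower, TP63 (7450 ± 252 and 6813 ± 332). Over all genes tested, the shares without overlap were 16.5% higher and 14.8% lower. DESeq2 called 2 of the 9 higher, and limma without NC mimic replicate 2 called 2 higher and 2 lower. In bulk RNA, fewer cells of a type and less RNA per cell cannot be told apart. The markers of other cell types analysed here were COL1A1 of fibroblasts (476 ± 85.0 normalized counts, SD, n = 3, in the NC mimic and 371 ± 7.02 in the miR-21-3p mimic), PMEL of melanocytes (134 ± 18.3 and 141 ± 13.5), CD14 of myeloid cells (75.8 ± 15.7 and 84.4 ± 13.2) and VWF of endothelium (749 ± 45.1 and 740 ± 25.2). None of these 4 genes was called in the main fit, although COL1A1 had a p under 0.05 before adjustment and was called lower by DESeq2, by edgeR with the replicate number as a block and by limma without NC mimic replicate 2. Its groups did not overlap. The part of such transcripts in the members' result was not tested.

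The 6 libraries did not stand equally far apart. On the first principal component of all genes tested, which carried 46.7% of the variance, the NC mimic replicates 1, 2 and 3 scored -21.3, -1.95 and -13.3 and the miR-21-3p mimic replicates 11.8, 6.86 and 17.8. The groups separated, but replicate 2 of each group lay nearest the other group. Across 14795 genes tested with limma on log2(normalized count + 1), 904 were called higher and 689 lower with the miR-21-3p mimic at an adjusted p under 0.05. Leaving out 1 library changed these totals to differing degrees. They were 95 higher and 81 lower without NC mimic replicate 3, 128 and 114 without miR-21-3p mimic replicate 1, 203 and 166 without miR-21-3p mimic replicate 3, and 314 and 228 without NC mimic replicate 1. Without NC mimic replicate 2 they were 1624 and 1327, and without miR-21-3p mimic replicate 2 they were 894 and 629.

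Of the 37 members analysed, 12 were called higher with the miR-21-3p mimic, against 6.11% of all genes tested. None was called lower by limma, edgeR, DESeq2 or limma-voom, against 4.66% of all genes tested in limma, and 1 member (QARS) had an unadjusted p under 0.05 in that direction. The 12 comprised 7 synthetases, AARS, FARSB, GARS, IARS, MARS, VARS and WARS, and 5 of the other members, ASNS, PSAT1, MTHFD2, TRIB3 and STC2. In 18 of the 37 members every miR-21-3p mimic library lay above every NC mimic library, against 16.5% of all genes, and in 1 (QARS) every one lay below, against 14.8%. The median log2 fold change was 0.16 over the 20 synthetases and 0.10 over the 17 other members (0.05 without NC mimic replicate 3), beside 0.00 over all genes tested. Whether the members as a group differ from other genes was not tested.

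**Figure D1:**
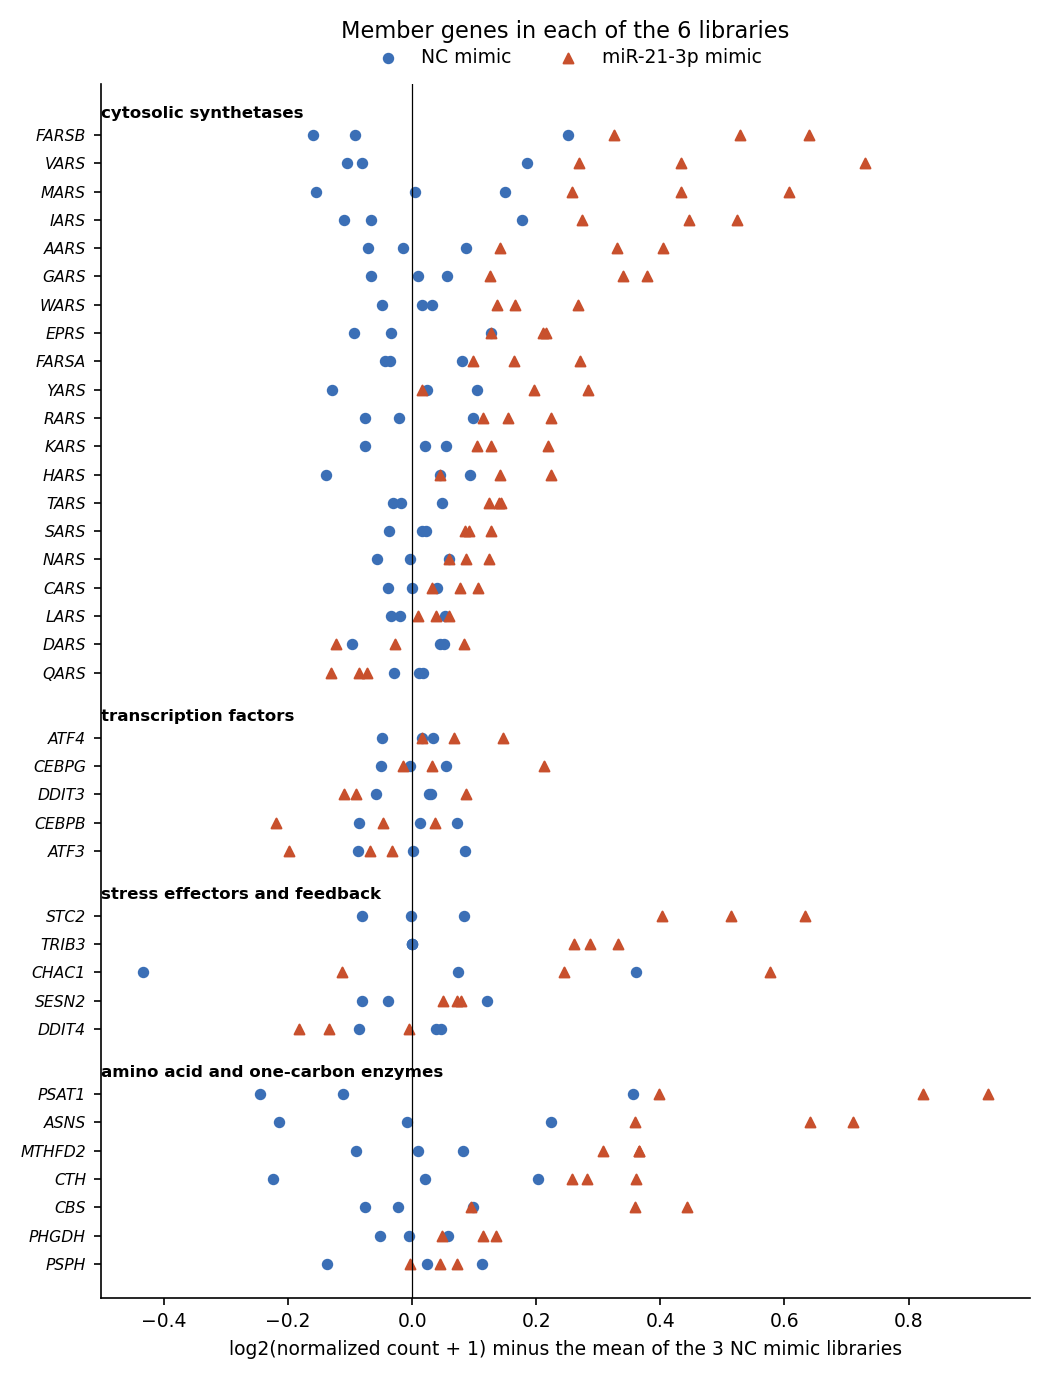
Each row is a member gene and each point a library, placed by log2(normalized count + 1) minus the mean of the 3 NC mimic libraries (circles, NC mimic; triangles, miR-21-3p mimic). In 18 of 37 genes all triangles lie to the right of all circles, and the 5 transcription factors show circles and triangles mixed.

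Among the synthetases, the largest called differences were those of FARSB, VARS, MARS and IARS. FARSB, the beta subunit of the phenylalanine enzyme, had 301, 382 and 287 normalized counts in NC mimic replicates 1, 2 and 3 and 463, 402 and 500 in the miR-21-3p mimic replicates. The groups did not overlap, and replicate 2 was the highest of the NC mimic and the lowest of the miR-21-3p mimic. The log2 fold change was 0.50 with a standard error of 0.11 (limma adjusted p = 0.0195). VARS, which charges valine, had 667, 816 and 678 normalized counts with the NC mimic and 969, 864 and 1190 with the miR-21-3p mimic. Its groups came closest at replicate 2, where 816 faced 864, and its log2 fold change was 0.48 with a standard error of 0.11 (limma adjusted p = 0.0186). FARSA, the alpha subunit that pairs with FARSB, rested at 929 ± 45.1 normalized counts (SD, n = 3) with the NC mimic and 1051 ± 63.8 with the miR-21-3p mimic, a log2 difference of 0.18 that was not called (limma adjusted p = 0.0869). Whether FARSA and FARSB differ in their response was not tested.

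MARS and IARS are the methionine and isoleucine enzymes of the multi-synthetase complex. MARS had 1620, 1790 and 1450 normalized counts with the NC mimic and 2180, 1930 and 2460 with the miR-21-3p mimic. Every miR-21-3p mimic library was above every NC mimic library, at a log2 fold change of 0.43 with a standard error of 0.088 (limma adjusted p = 0.0128). For IARS the counts were 3380, 4120 and 3480 with the NC mimic and 4970, 4410 and 5240 with the miR-21-3p mimic. Replicate 2 again formed the near edge of both groups, which did not overlap, and the log2 fold change was 0.41 with a standard error of 0.077 (limma adjusted p = 0.00941). The element printed above begins 14 bases before the start of IARS and spans that of MARS. Of the 8 listed enzymes of the complex, these 2 were called, and the 8 had a median log2 fold change of 0.16 with a range from -0.10 (QARS) to 0.43 (MARS). Of the 12 synthetases outside it, 5 were called, with a median of 0.17 and a range from 0.07 (CARS) to 0.50 (FARSB). The share called higher over all genes tested was 6.11%.

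AARS, GARS and WARS, the alanine, glycine and tryptophan enzymes, showed smaller called differences. AARS had 3330, 3570 and 3200 normalized counts with the NC mimic and 4230, 3710 and 4450 with the miR-21-3p mimic. The separation was narrowest at replicate 2, and the log2 fold change was 0.29 with a standard error of 0.065 (limma adjusted p = 0.0186). GARS, whose product serves both the cytosol and mitochondria, had 1780, 1840 and 1690 normalized counts with the NC mimic and 2240, 1930 and 2300 with the miR-21-3p mimic. All 3 libraries of the miR-21-3p mimic were higher, at a log2 fold change of 0.28 with a standard error of 0.066 (limma adjusted p = 0.0212). WARS, also known as an interferon-induced gene, had 3430, 3630 and 3590 normalized counts with the NC mimic and 3900, 3980 and 4270 with the miR-21-3p mimic. Here the lowest library of the miR-21-3p mimic was replicate 1, the groups did not overlap, and the log2 fold change was 0.19 with a standard error of 0.048 (limma adjusted p = 0.0291). With the replicate number as a block WARS was not called (adjusted p = 0.0542 in limma and 0.0615 in edgeR).

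The 13 synthetases without a call spanned log2 fold changes from -0.10 to 0.18, and 11 of them were above 0. EPRS, the fused glutamate and proline enzyme, was nearest the threshold, with 4513 ± 364 normalized counts (SD, n = 3) with the NC mimic and 5120 ± 173 with the miR-21-3p mimic (log2 fold change 0.18, limma adjusted p = 0.0568). In DESeq2 on reads recovered from the table it was called (adjusted p = 0.0475), and over the alternatives tried other than leaving out a library its adjusted p ran from 0.0475 to 0.108. QARS, which charges glutamine, was the member with non-overlapping groups in the other direction. It had 5100, 4940 and 5080 normalized counts with the NC mimic and 4790, 4750 and 4600 with the miR-21-3p mimic. That log2 difference of -0.10 was not called (limma adjusted p = 0.15). Leucine and aspartate enzymes stayed close to 0, with log2 fold changes of 0.04 for LARS and -0.02 for DARS and with overlapping groups in both. In the 6 fits without 1 library LARS ran from 0.02 to 0.06, and DARS from -0.08 to 0.03, so that its sign turned.

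Summed over the 20 synthetases, the level was 53678, 57989 and 54371 normalized counts in NC mimic replicates 1, 2 and 3 and 62402, 59220 and 63890 in the miR-21-3p mimic replicates. The groups did not overlap, but NC mimic replicate 2 and miR-21-3p mimic replicate 2 lay closest. Replicate 2 was the highest NC mimic library in 17 of the 20 synthetases, against 36.1% of all genes tested, and the lowest miR-21-3p mimic library in 15 of 20, against 36.4%. Among the 904 genes called higher these shares were 77.7% and 62.4%. The count of synthetases called changed in 5 of the 6 fits without 1 library. It was 0 of 20 without NC mimic replicate 3, where 11 had an unadjusted p under 0.05 in limma, and 0 of 20 without miR-21-3p mimic replicate 1, where 12 did. It was 1 (IARS) without miR-21-3p mimic replicate 3, 2 (IARS and MARS) without NC mimic replicate 1, and 12 without NC mimic replicate 2, while it stayed at 7 without miR-21-3p mimic replicate 2. The log2 fold changes of the 7 called synthetases stayed above 0 in each of these fits, between 0.15 (WARS) and 0.62 (FARSB).

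**Figure D2:**
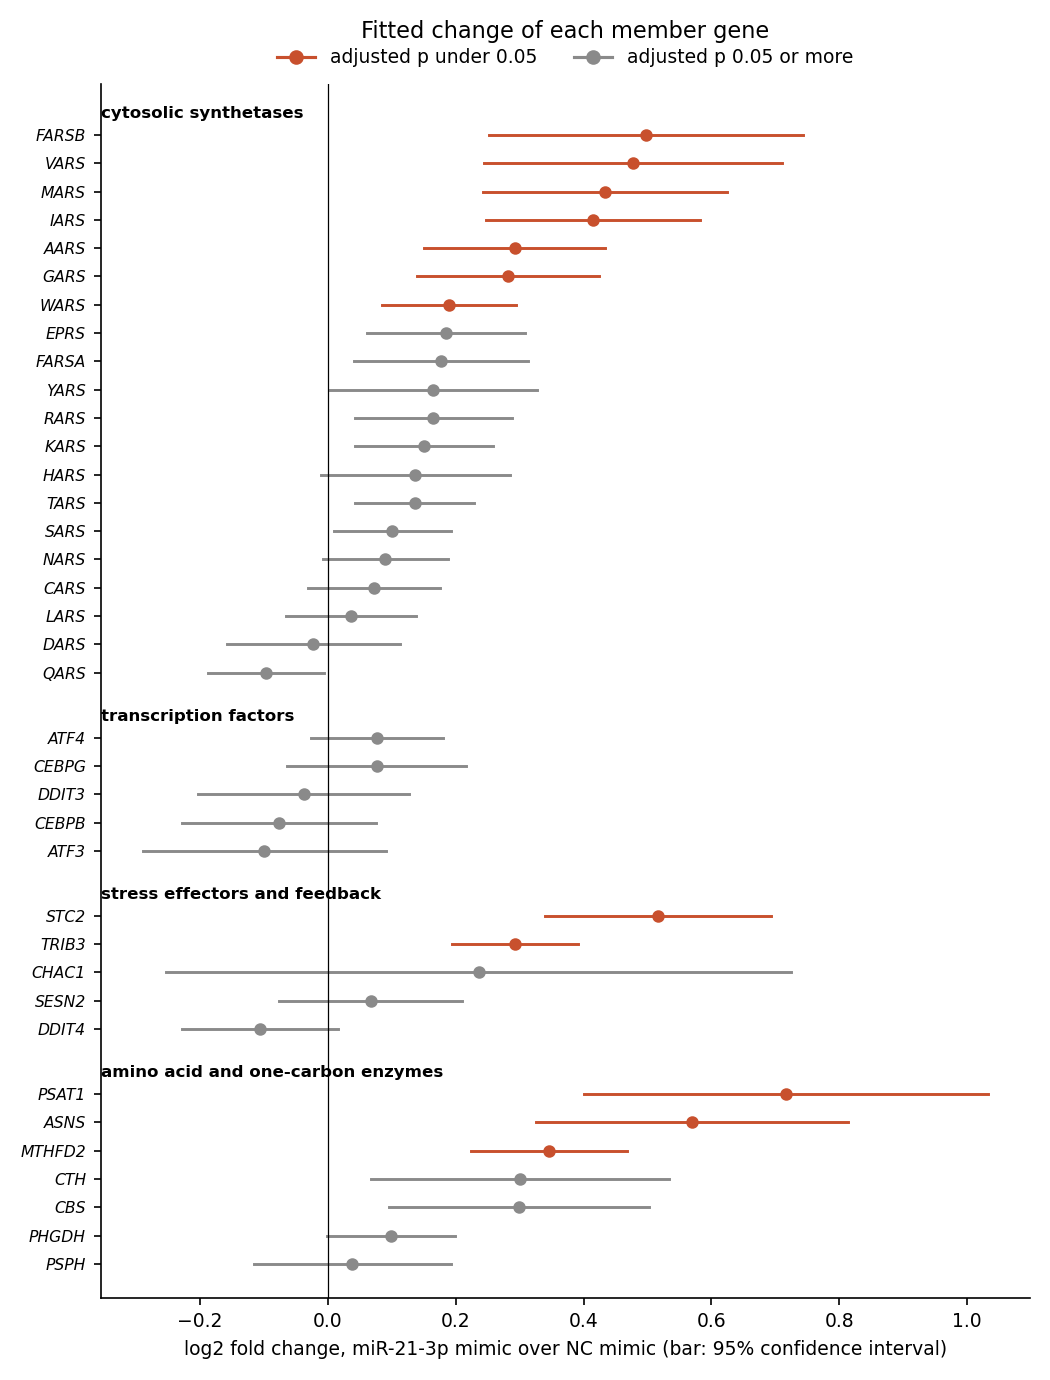
Points are limma log2 fold changes of the miR-21-3p mimic over the NC mimic and bars their 95% confidence intervals, on the log2(normalized count + 1) scale. Members called at an adjusted p under 0.05 are red, 7 of 20 synthetases and 5 of 17 others, and all 12 lie to the right of 0.

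The transcription factors of the module showed no call. ATF4, the regulator of the response, had 4670, 4610 and 4410 normalized counts with the NC mimic and 5050, 4780 and 4610 with the miR-21-3p mimic. The groups overlapped, since 4610 occurred in both. The log2 fold change was 0.08 with a standard error of 0.047 (95% confidence interval -0.03 to 0.18, limma adjusted p = 0.313). DDIT3, the stress factor also called CHOP, had 482, 483 and 454 normalized counts with the NC mimic and 444, 502 and 438 with the miR-21-3p mimic. Its highest and its lowest library both belonged to the miR-21-3p mimic, with a log2 difference of -0.04 and a standard error of 0.076 (limma adjusted p = 0.774). ATF3, CEBPB and CEBPG, which bind DNA as partners or competitors of ATF4, had overlapping groups and log2 fold changes of -0.10, -0.08 and 0.08. In the 6 fits without 1 library these ran from -0.14 to -0.05, from -0.13 to -0.005 and from 0.008 to 0.12. In the same fits ATF4 ran from 0.04 to 0.11 and DDIT3 from -0.10 to -0.002. None of the 5 was called by limma, edgeR, DESeq2 or limma-voom, and none had an unadjusted p under 0.05 in any of them.

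The stress effectors and feedback genes divided. TRIB3, a pseudokinase that is induced by ATF4 and dampens its activity, had 1820, 1820 and 1820 normalized counts with the NC mimic, as rounded in the table, and 2290, 2180 and 2220 with the miR-21-3p mimic. The NC mimic libraries coincided at 3 digits, and all 3 miR-21-3p mimic libraries lay above them. TRIB3 had a log2 fold change of 0.29 with a standard error of 0.045 (limma adjusted p = 0.00499). STC2, a secreted glycoprotein induced by stress, had 379, 357 and 338 normalized counts with the NC mimic and 555, 473 and 511 with the miR-21-3p mimic. The gap between the groups ran from 379 to 473, and the log2 fold change was 0.52 with a standard error of 0.081 (limma adjusted p = 0.00528). Both calls held in each of the 6 fits without 1 library, with a highest adjusted p of 0.0443 for TRIB3 and 0.0431 for STC2.

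CHAC1, which degrades glutathione and is a common reporter of the ATF4 pathway, was the scarcest member. It had 57.3, 70.1 and 40 normalized counts with the NC mimic and 81.6, 50.2 and 64.6 with the miR-21-3p mimic. The groups overlapped over most of their range, and the log2 fold change of 0.24 had a 95% confidence interval from -0.25 to 0.72 (limma adjusted p = 0.526), an interval that holds both 0 and the 0.29 of TRIB3. In the 6 fits without 1 library the log2 fold change of CHAC1 ran from 0.02 to 0.42. DDIT4, an inhibitor of mTORC1, was the most abundant member with 16467 ± 839 normalized counts (SD, n = 3) with the NC mimic and 15300 ± 985 with the miR-21-3p mimic. SESN2, another mTORC1 inhibitor that senses leucine, had 714 ± 53.5 and 747 ± 7.94. Neither was called, at log2 fold changes of -0.11 and 0.07. Without 1 library DDIT4 ran from -0.16 to -0.07 and SESN2 from 0.03 to 0.13.

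Among the biosynthetic enzymes the largest log2 fold change of all members was that of PSAT1. PSAT1, the aminotransferase of serine synthesis, had 1140, 1730 and 1250 normalized counts with the NC mimic and 2390, 1780 and 2570 with the miR-21-3p mimic. The groups did not overlap, but NC mimic replicate 2 at 1730 and miR-21-3p mimic replicate 2 at 1780 nearly met. Its log2 fold change was 0.72 with a standard error of 0.15 (limma adjusted p = 0.0129). The other enzymes of the serine route were not called, with 4420 ± 171 normalized counts (SD, n = 3) and 4733 ± 146 for PHGDH, which opens it, and 704 ± 61.1 and 722 ± 19.2 for PSPH, which closes it. Their log2 fold changes were 0.10 (limma adjusted p = 0.18) and 0.04 (limma adjusted p = 0.756). In the 6 fits without 1 library that of PSPH ran from -0.03 to 0.09, so that its sign turned.

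ASNS, which makes asparagine and is the textbook target of the amino acid response, had 388, 526 and 448 normalized counts with the NC mimic and 703, 578 and 738 with the miR-21-3p mimic. All 3 miR-21-3p mimic libraries exceeded the highest NC mimic library, replicate 2. The log2 fold change was 0.57 with a standard error of 0.11 (limma adjusted p = 0.0116), and the element printed above lies 68 bases before its start. MTHFD2, a mitochondrial folate enzyme, had 1100, 1240 and 1180 normalized counts with the NC mimic and 1510, 1450 and 1510 with the miR-21-3p mimic. The miR-21-3p mimic libraries lay close together and above all NC mimic libraries, at a log2 fold change of 0.35 with a standard error of 0.056 (limma adjusted p = 0.00581). Its call held in each of the 6 fits without 1 library, where the highest adjusted p was 0.048. ASNS lost its call without NC mimic replicate 3, miR-21-3p mimic replicate 1 or miR-21-3p mimic replicate 3, and PSAT1 without any of these or without NC mimic replicate 1. The highest adjusted p in those fits was 0.0644 for ASNS and 0.0688 for PSAT1. Of the 17 members other than synthetases, 3 (TRIB3, STC2 and MTHFD2) were thus called without NC mimic replicate 3, miR-21-3p mimic replicate 1 or miR-21-3p mimic replicate 3.

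CTH and CBS, the enzymes that turn homocysteine into cysteine, had the largest log2 fold changes among members without a call. CTH had 250, 284 and 211 normalized counts with the NC mimic and 300, 317 and 295 with the miR-21-3p mimic. Its groups did not overlap, and the log2 fold change was 0.30 with a standard error of 0.11 (limma adjusted p = 0.09). CBS had 381, 430 and 395 normalized counts with the NC mimic and 515, 429 and 546 with the miR-21-3p mimic. The lowest library of the miR-21-3p mimic, replicate 2, fell just below the highest of the NC mimic, and the log2 fold change was 0.30 with a standard error of 0.094 (limma adjusted p = 0.0592). Without NC mimic replicate 2 both were called, and CBS was called also without miR-21-3p mimic replicate 2 and in DESeq2 (adjusted p = 0.0499). Without NC mimic replicate 3 the log2 fold change of CTH fell to 0.19 (adjusted p = 0.321), and without miR-21-3p mimic replicate 3 the adjusted p of CBS was 0.214. Over the alternatives tried other than leaving out a library, the adjusted p of CBS ran from 0.0499 to 0.0802. The 7 enzymes analysed had a median log2 fold change of 0.30 and the 5 transcription factors -0.04 (-0.09 without miR-21-3p mimic replicate 2 and -0.002 without miR-21-3p mimic replicate 3), and 3 and 0 of them were called. Of the 5 stress effectors 2 were called, and their median, 0.24, was the value of CHAC1 and fell to 0.03 without NC mimic replicate 3 and 0.08 without miR-21-3p mimic replicate 1. The share called higher over all genes tested was 6.11%. Whether these role groups differ was not tested.

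**Figure D3:**
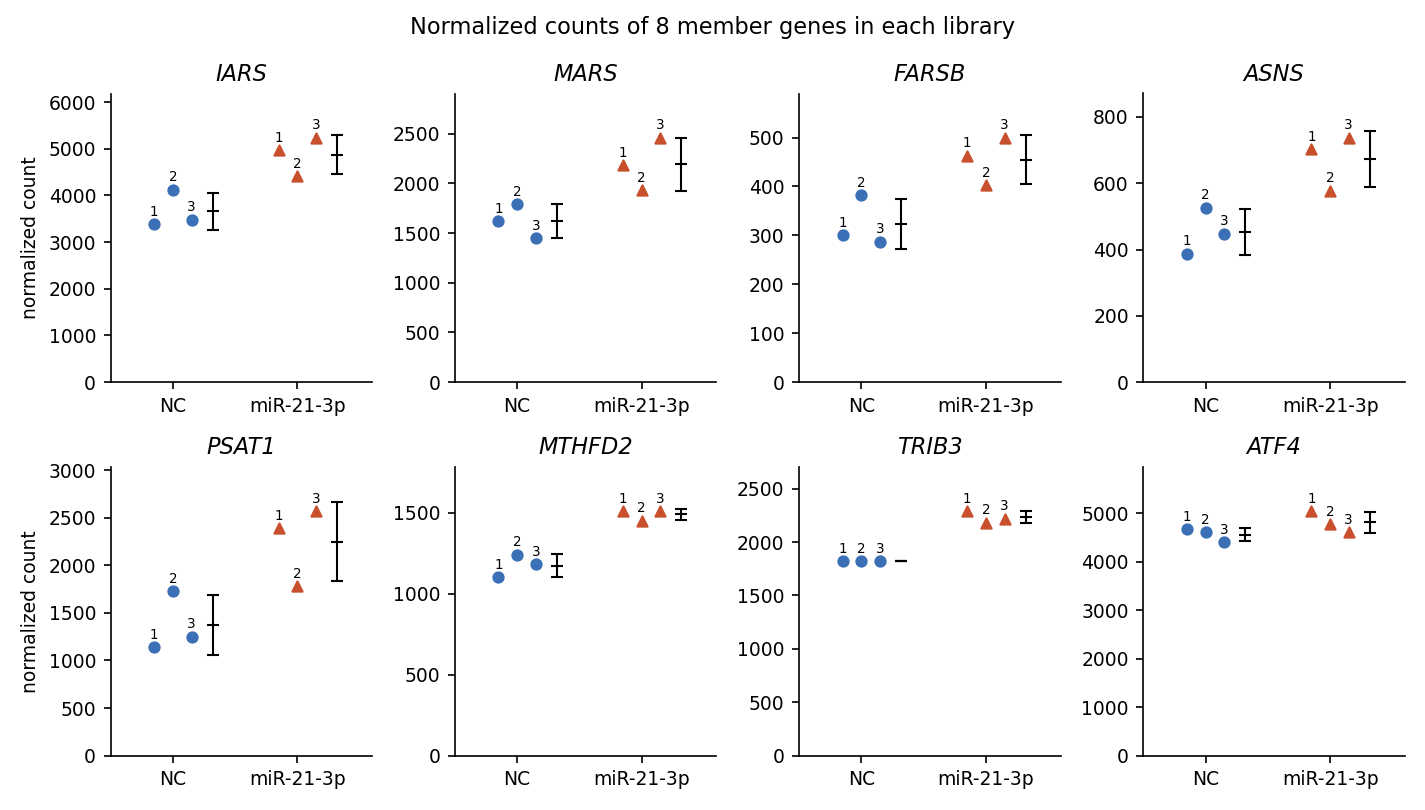
Normalized counts of IARS, MARS, FARSB, ASNS, PSAT1, MTHFD2, TRIB3 and ATF4 in each library, numbered by replicate, with the group mean and SD as a bar (n = 3). In PSAT1 the replicates numbered 2 lie at 1730 and 1780, TRIB3 is level at 1820 in the NC mimic, and in ATF4 the groups overlap.

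Levels between genes were compared per kilobase of merged exon length (GENCODE v29, which need not be the annotation behind the table), as normalized counts per kilobase in the NC mimic. DDIT4 was highest at 8001 ± 408 (SD, n = 3), followed by NARS at 2030 ± 80.8 and ATF4 at 1815 ± 54.2. The ATF4 transcript was thus among the more abundant of the module in control cells. Among synthetases the lowest levels were those of FARSB, 96.0 ± 15.2, and VARS, 118 ± 13.7, while FARSA stood at 382 ± 18.5. CHAC1 at 27.1 ± 7.34, STC2 at 58.4 ± 3.35 and CBS at 59.2 ± 3.72 were the scarcest members, and those of STC2 and CBS did not differ beyond their spread. ASNS, at 102 ± 15.5, lay near CTH, at 103 ± 15.1.

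Related gene lists were read beside these values. The shares of all genes tested called higher and lower, 6.11% and 4.66%, stand beside each count of calls. The 15 mitochondrial synthetases tested had a median log2 fold change of 0.05 (0.04 to 0.07 in the 6 fits without 1 library), below the 0.16 of the cytosolic ones, and whether they differ was not tested. Of the scaffold proteins of the complex, AIMP2 was called higher, with 594 ± 24.6 normalized counts (SD, n = 3) with the NC mimic and 763 ± 80.5 with the miR-21-3p mimic, and AIMP1 was not, with 1067 ± 40.4 and 1053 ± 41.6. The call of AIMP2 was lost without NC mimic replicate 1 or 3 or without miR-21-3p mimic replicate 1 or 3.

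Upstream of ATF4, 14 genes for eIF2 kinases, eIF2 and eIF2B subunits, eIF2 phosphatase subunits and GCN2 partners were tested. In the main fit EIF2S1, the eIF2 subunit that the kinases phosphorylate, was the 1 gene called, with 2750 ± 165 normalized counts (SD, n = 3) with the NC mimic and 3110 ± 91.7 with the miR-21-3p mimic (limma adjusted p = 0.0455). That is 7.14% of the list called higher, close to the 6.11% of all genes tested. No gene of the list was called in edgeR with median-ratio factors, with no filter or with the replicate block, and 2 were with the stricter filter. The EIF2S1 call was lost without any library but NC mimic replicate 2, and without that library 5 genes of the list were called. The list had a median log2 fold change of 0.07, and EIF2AK4, which encodes GCN2, had 1560 ± 52.9 and 1597 ± 5.77. Phosphorylation was not measured.

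Among 9 amino acid carriers tied to ATF4, SLC1A4 and SLC7A1 were called higher. SLC1A4, a carrier of alanine, serine and cysteine, had 849, 795 and 810 normalized counts with the NC mimic and 1040, 1020 and 1020 with the miR-21-3p mimic, and was called in each of the 6 fits without 1 library. SLC7A1, a carrier of arginine and lysine, had 18467 ± 115 (SD, n = 3) and 20533 ± 493 and of these fits kept its call only in that without NC mimic replicate 2. With no filter or with the replicate block, 1 of the 9 was called. The 9 carriers had a median log2 fold change of 0.12.

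Of 13 further genes often listed as ATF4 targets, 4 were called higher, PYCR1, EIF4EBP1, XPOT and SHMT2, and none lower by limma, edgeR, DESeq2 or limma-voom, with 1 unadjusted p under 0.05 in that direction in limma, in the fits with all 6 libraries and no block. With the replicate number as a block, limma and edgeR each called 3 higher and 1 lower, and 1 was lower also in the limma fit without NC mimic replicate 2 and in that without miR-21-3p mimic replicate 2. PYCR1, an enzyme of proline synthesis, had 330, 374 and 305 normalized counts with the NC mimic and 572, 458 and 619 with the miR-21-3p mimic. Its groups were well apart, the log2 fold change was 0.70 with a standard error of 0.11 (limma adjusted p = 0.00528), and the call held in each of the 6 fits without 1 library. XPOT, which exports tRNA from the nucleus, had 1827 ± 70.2 (SD, n = 3) and 2190 ± 122, and EIF4EBP1, a repressor of translation, had 488 ± 51.7 and 637 ± 10.02. SHMT2, which passes carbon units from serine to folate, had 4080 ± 187 and 4710 ± 263. The calls of XPOT, EIF4EBP1 and SHMT2 were lost without NC mimic replicate 3 or miR-21-3p mimic replicate 1 or 3, and that of SHMT2 also without NC mimic replicate 1.

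The unfolded protein response, a separate pathway that also reaches ATF4, was read from 17 genes of endoplasmic reticulum chaperones and the XBP1 and ATF6 arms. HSPA5, HSP90B1, HYOU1 and SDF2L1 were called higher in the main fit, and 3 genes were in limma with no filter and in edgeR without a block. None was called lower in the main fit, where 2 had an unadjusted p under 0.05 in that direction, while edgeR without a block and limma-voom called HERPUD1 lower. HSPA5, the chaperone BiP, had 9650, 12200 and 11000 normalized counts with the NC mimic and 13000, 12200 and 14200 with the miR-21-3p mimic. The groups met at 12200 in both replicates 2, and the log2 fold change was 0.27 with a standard error of 0.077 (limma adjusted p = 0.0461). No gene of this list was called higher without NC mimic replicate 1, NC mimic replicate 3, miR-21-3p mimic replicate 1 or miR-21-3p mimic replicate 3, and 8 were, with 1 lower, without NC mimic replicate 2.

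Of 10 proliferation genes tested, 7 were called higher, against 6.11% of all genes tested, and 3 (MCM2, MCM3 and MCM5) were not called. CCNB1, CDK1, BUB1 and MKI67 had the largest log2 fold changes, 0.44, 0.42, 0.39 and 0.38. Summed over the list, of which MKI67 was the most abundant gene, the level was 62088, 75964 and 67926 normalized counts in NC mimic replicates 1, 2 and 3 and 84293, 83259 and 90131 in the miR-21-3p mimic replicates. NC mimic replicate 2 was the highest NC mimic library in all 10, as it was in 17 of the 20 synthetases. The calls of CCNB1 and CDK1 held in each of the 6 fits without 1 library, while BUB1 lost its call without NC mimic replicate 3 and MKI67 without NC mimic replicate 3 or miR-21-3p mimic replicate 1. The list had 2 calls without NC mimic replicate 3, 3 without miR-21-3p mimic replicate 1, 4 without miR-21-3p mimic replicate 3 and 5 without NC mimic replicate 1, but 9 without miR-21-3p mimic replicate 2 and in DESeq2 and all 10 without NC mimic replicate 2. The part of proliferation in the members' values was not tested.

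**Figure D4:**
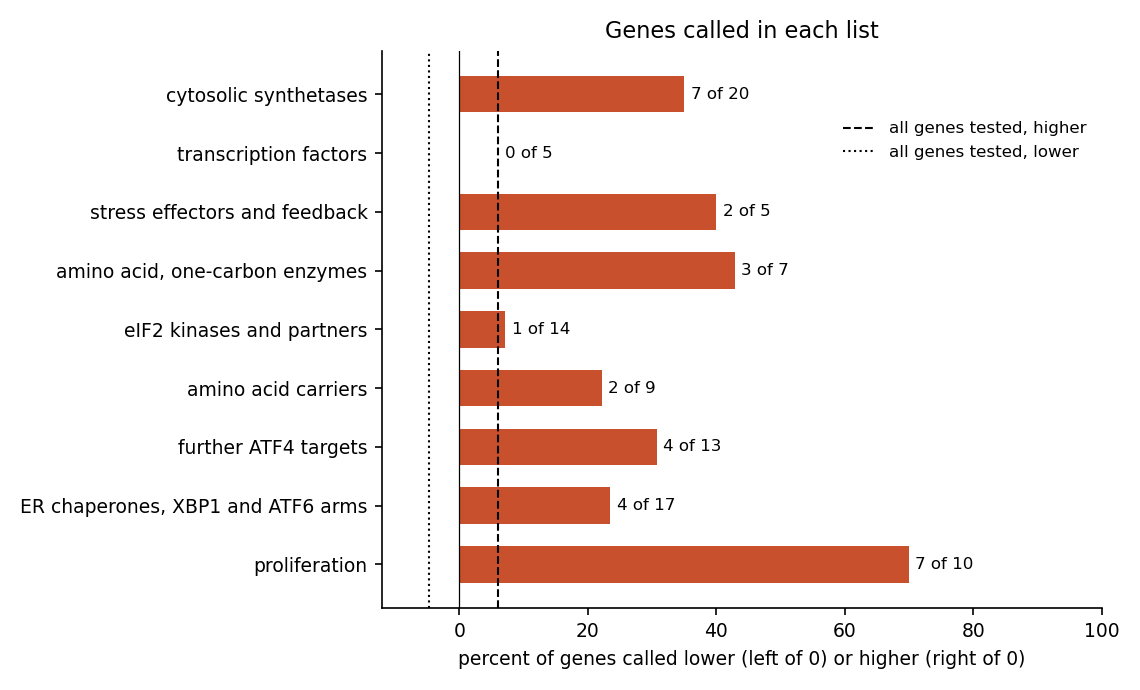
Bars give the percent of tested genes in each list called higher (right of 0) with the miR-21-3p mimic, with the counts beside them, and no list had a gene called lower (left of 0). The dashed and dotted lines mark 6.11% and 4.66%, the shares of all genes called higher and lower. The synthetases reach 7 of 20 and the transcription factors 0 of 5.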

How the data were processed

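PolyA RNA of 6 HaCaT libraries was measured, 3 per group, with a stranded Illumina mRNA kit. The authors deposited 1 table with a signal per gene and library, which its values show to be read counts divided by 1 size factor per library and rounded to 3 significant digits. The submitters' processing notes name bcl2fastq 2.18.12, cutadapt 1.15, TopHat2 2.1.1, featureCounts of Subread 1.5.2 and DESeq2. The genome build, annotation and strand setting were not given in the sources used here.

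The main fit was limma 3.58.1 (R 4.3.3, trend = TRUE) on log2(normalized count + 1) for 14795 genes with at least 10 in at least 3 libraries, with Benjamini-Hochberg adjustment over all of them and a threshold of 0.05. Fold changes are on that log2 scale, which understates the change of low genes. The design had named edgeR with TMM factors on raw counts, and since the table holds normalized counts limma took its place. Whole reads were recovered from 100% of low values, up to 50 reads (tolerance 0.1 of a read). The reads behind large values are estimates, since the values were rounded to 3 significant digits. The edgeR 4.0.16 quasi-likelihood test on recovered reads called 875 genes higher and 776 lower with median-ratio factors. With TMM factors it called 880 higher and 764 lower, a fit to recovered reads that was added after seeing the data. DESeq2 1.42.0 and limma-voom were further alternatives, as were other filters, scalings, pseudocounts, a replicate block and leaving out each library. A fit without both replicates numbered 2 was tried and set aside, since it picks libraries by their values. The scripts were tested on simulated data.

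Per-sample values are given for each member called, for ATF4, DDIT3, ASNS, CHAC1 and TRIB3, and for the 2 uncalled members of largest absolute log2 fold change, with QARS and replicate 2 singled out after the values were seen. Up to 4 called genes were named from each related list. The members and lists were chosen with earlier results of these data known. The further listed genes EEF1E1, SLC7A3, VLDLR, FGF21, GDF15 and KRT17, and other markers of fibroblasts, melanocytes, immune cells and endothelium, were not analysed here. Single genes of the mitochondrial synthetase list are not reported here. Promoter windows came from RefSeq (GRCh38.p14), with members matched by symbol or older symbol.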

Additional observations from a re-analysis of the deposited data

How the results depend on the processing

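Over the alternatives that kept all 6 libraries and used no block (edgeR with TMM or median-ratio factors, DESeq2, limma-voom, TMM scaling, other filters and pseudocounts), 819 to 915 genes were called higher and 624 to 776 lower, 7 or 8 synthetases and 5 or 6 other members were called higher, and no member was called lower. DESeq2 was the alternative that added EPRS and CBS. The median log2 fold change of all genes stayed between -0.01 and 0.01 in each. The edgeR fits to recovered reads with TMM and with a block, the TMM scaling and both pseudocounts were added after seeing the data. Of these, edgeR with TMM was the test that the design had named for raw counts.

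With the replicate number as a block in limma, 681 genes were called higher and 512 lower, with 6 synthetases and 5 other members, and WARS had an adjusted p of 0.0542 (0.0615 in edgeR with the block). The same-numbered libraries deviated from their group means with correlations of -0.002, -0.20 and -0.16, and no library correlated best with its own number. Deviations within a group of 3 libraries are tied to each other, so these values cannot settle whether the numbers pair the samples.

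Leaving out 1 library gave 95 to 1624 genes called higher and 81 to 1327 lower, 0 to 12 synthetases and 3 to 7 other members. The lowest counts came without NC mimic replicate 3 and the highest without NC mimic replicate 2. TRIB3, STC2 and MTHFD2 were called in all 6 such fits, and the other 9 called members lost the call in 2 to 4 of them. The cause was not tested. The synthetase median stayed between 0.13 and 0.21 and that of the other members between 0.05 and 0.13.

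With 3 libraries per group, differences like that of CHAC1, at under 100 normalized counts, were bounded only loosely, and values rounded to 3 digits hide smaller spread, as in TRIB3.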
